A study of Mus musculus with 20 samples.

Results

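The ubiquitin-conjugating (E2) enzymes were taken as all genes whose symbol, mapped from the Ensembl identifiers of the count tables, starts with Ube2, which gave 35 of 19214 genes. A filter on low counts kept 33 of the 35. Ube2u, with 49 reads in all libraries together, and Ube2d2b, with 1 read, did not pass. Ube2cbp carries the prefix but is an older symbol of the E3 ligase Ube3d, so it is kept here by its name and not by its function. The symbol decided membership, but the family was chosen by earlier values of these data, in which Ube2v2 had the smallest p-value between male groups and GC content followed the male difference. The stress values in males and females, and their relation to GC content, are therefore given as a description and support nothing by themselves.

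The BNST (bed nucleus of the stria terminalis), a forebrain region in the circuits of sustained anxiety, was profiled by RNA sequencing of polyadenylated RNA in mice of a chronic restraint stress model of anxiety. There were 20 libraries in 4 groups of 5, namely female controls, male controls, and females and males that the labels call susceptible. The labels give no strain or age, do not say how susceptibility was decided or how long the restraint lasted, and do not say that each library came from a separate animal, so p-values measure the spread between these libraries only. In bulk tissue, fewer cells of a type and less RNA per cell cannot be told apart.

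Ubiquitin is attached to proteins by a relay. An E1 enzyme activates ubiquitin with ATP, an E2 takes it over on a cysteine, and an E3 ligase brings the loaded E2 to the target protein. The E2 often sets which chain is built, and the chain decides whether the target goes to the proteasome or is used in signalling or DNA repair. In neurons this system acts at synapses, where it controls how long receptors and scaffold proteins last.

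GC content, the percentage of G and C bases over all annotated exons, ran from 37.2% in Ube2v2 to 60.2% in Ube2ql1 among the 33 genes, with a median of 47.2% against 49.5% over all 14884 genes tested. The first 240 coding bases of 3 members follow, 5′ to 3′ on the coding strand, from GENCODE release 21 on GRCm38, with every G and C in capitals. They are shown because Ube2n had the second largest positive male log2 difference, after Ube2v2, and lies in the GC-poor part, while Ube2m and Ube2ql1 are the 2 members richest in GC.
Ube2n: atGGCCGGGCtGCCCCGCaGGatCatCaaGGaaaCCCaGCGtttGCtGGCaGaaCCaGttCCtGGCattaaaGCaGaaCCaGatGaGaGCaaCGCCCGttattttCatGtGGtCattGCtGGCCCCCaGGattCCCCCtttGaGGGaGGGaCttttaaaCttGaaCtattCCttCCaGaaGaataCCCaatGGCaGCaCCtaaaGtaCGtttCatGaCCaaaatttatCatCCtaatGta
Ube2m: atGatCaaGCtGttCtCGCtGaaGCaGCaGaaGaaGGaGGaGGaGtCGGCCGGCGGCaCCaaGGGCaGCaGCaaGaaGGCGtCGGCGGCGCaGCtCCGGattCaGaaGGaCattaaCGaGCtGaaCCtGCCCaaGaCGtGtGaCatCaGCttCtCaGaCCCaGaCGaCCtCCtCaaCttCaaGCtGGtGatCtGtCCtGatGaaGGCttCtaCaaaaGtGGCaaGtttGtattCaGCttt
Ube2ql1: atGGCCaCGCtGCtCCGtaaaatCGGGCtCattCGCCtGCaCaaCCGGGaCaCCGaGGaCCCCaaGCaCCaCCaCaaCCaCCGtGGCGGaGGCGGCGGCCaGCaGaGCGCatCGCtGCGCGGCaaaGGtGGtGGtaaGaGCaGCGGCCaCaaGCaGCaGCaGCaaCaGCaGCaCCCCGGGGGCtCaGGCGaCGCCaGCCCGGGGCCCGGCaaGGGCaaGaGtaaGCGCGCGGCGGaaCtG
In these stretches G and C made up 48.3% of the bases of Ube2n, 54.2% of Ube2m and 68.8% of Ube2ql1. The genes lie on chromosome 10 from 95515145 to 95545657 (Ube2n, plus strand), chromosome 7 from 13035120 to 13038275 (Ube2m, minus strand) and chromosome 13 from 69702832 to 69739889 (Ube2ql1, minus strand).

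The family was well covered. Total counts per library ran from 14637636 to 17862840, and 28 of the 33 genes had a mean of 31.3 CPM (read counts scaled to library size) or more, while the other 5 (Ube2c, Ube2t, Ube2v1, Ube2cbp and Ube2l6) were under 5 CPM. Per kilobase of exons, Ube2b, a homolog of yeast Rad6, had the highest level at 81.4 CPM per kb. Ube2ql1 had 48.1 CPM per kb, the NEDD8 enzyme Ube2m 45.0, Ube2n 44.3 and the very large E2 Ube2o 36.1, while the cell cycle enzyme Ube2c, which works with the anaphase-promoting complex, had 0.241. The coefficient of variation over the 20 libraries of the 28 genes ran from 4.0% in Ube2q1 to 15.1% in Ube2v2, the member poorest in GC. It was 14.6% in Ube2a, 14.4% in Ube2g2 and 13.9% in Ube2ql1, the member richest in GC.

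Some libraries held RNA of neighbouring tissue. Markers of GABA neurons, the main cell type of the BNST, were present in every group at a summed 1130 to 2318 CPM, and no marker list had a gene at 0 in all libraries. Transthyretin (Ttr), a choroid plexus gene, was over 100 CPM in 2 female control, 1 male control, 2 susceptible female and 2 susceptible male libraries. Pmch, a lateral hypothalamic peptide gene, was over 1 CPM in 3 female control libraries and in 1 library of each susceptible group. Summed markers of oligodendrocytes were 5653 to 9610 CPM in female controls, 3482 to 6536 in male controls, 5608 to 7420 in susceptible females and 5567 to 7249 in susceptible males.

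Lys63-linked chains act in signalling and DNA repair. Ube2n is the catalytic E2 of these chains, and Ube2v1 and Ube2v2 are its partners, E2-like proteins without the active cysteine. Ube2v2 had the highest male log2 fold change of the family and Ube2v1 the lowest. Nothing is read from these places about the chains. The smallest male p-value, that of Ube2v2, was known when the family was chosen, and Ube2v1 rests on few reads. Ube2v2 had 38.9, 32.6, 27.5, 40.3 and 29.0 CPM in the male controls and 48.8, 41.3, 45.9, 46.2 and 48.6 in the susceptible males. Female controls had 49.8, 44.0, 47.7, 47.3 and 42.1 CPM, and susceptible females 47.6, 46.7, 47.5, 45.4 and 45.7. The 5 male controls were the 5 lowest of all 20 libraries, and the other 3 groups overlapped each other. Group means were 33.7 ± 5.73 CPM in male controls, 46.1 ± 3.02 in susceptible males, 46.2 ± 3.06 in female controls and 46.6 ± 1.03 in susceptible females (SD, n = 5 each). The male log2 fold change was 0.45 ± 0.09 (SE), with an unadjusted p of 6.0e-05 and an adjusted p of 0.405 in edgeR's quasi-likelihood test, so it did not pass the threshold of 0.05. In females the log2 fold change of Ube2v2 was 0.01 ± 0.09 (edgeR adjusted p = 0.973), and the difference between the sexes, female minus male, was -0.44 ± 0.13 (edgeR adjusted p = 0.587).

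Ube2n had 177, 168, 160, 180.0 and 143 CPM in the male controls and 206, 187, 198, 197 and 205 in the susceptible males. Female controls had 196, 171, 184, 203 and 188 CPM, and susceptible females 205, 190, 203, 200.3 and 183. The male groups did not overlap, and the female groups did. The male log2 fold change was 0.26 ± 0.06 (edgeR adjusted p = 0.405) and the female one 0.06 ± 0.06 (edgeR adjusted p = 0.827).

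Ube2v1, the other partner, had the lowest male log2 fold change of the family. It had 1.098, 1.396, 0.94, 1.26 and 0.81 CPM in the male controls and 0.54, 0.79, 0.51, 0.74 and 0.46 in the susceptible males, which did not overlap. Female controls had 0.74, 1.04, 0.86, 0.83 and 0.55 CPM and susceptible females 0.92, 0.56, 0.90, 0.83 and 1.37, which did. The male log2 fold change was -0.85 ± 0.26 (edgeR adjusted p = 0.405) and the female one 0.18 ± 0.26 (edgeR adjusted p = 0.871). These values rest on 7 to 23 reads per library, 275 in all. They are uncertain, because 61.5% of the exonic bases of Ube2v1 also belong to the readthrough gene Gm20431, which was listed with 2 reads, and how such reads were assigned is not given in the sources used here.

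**Figure D1:**
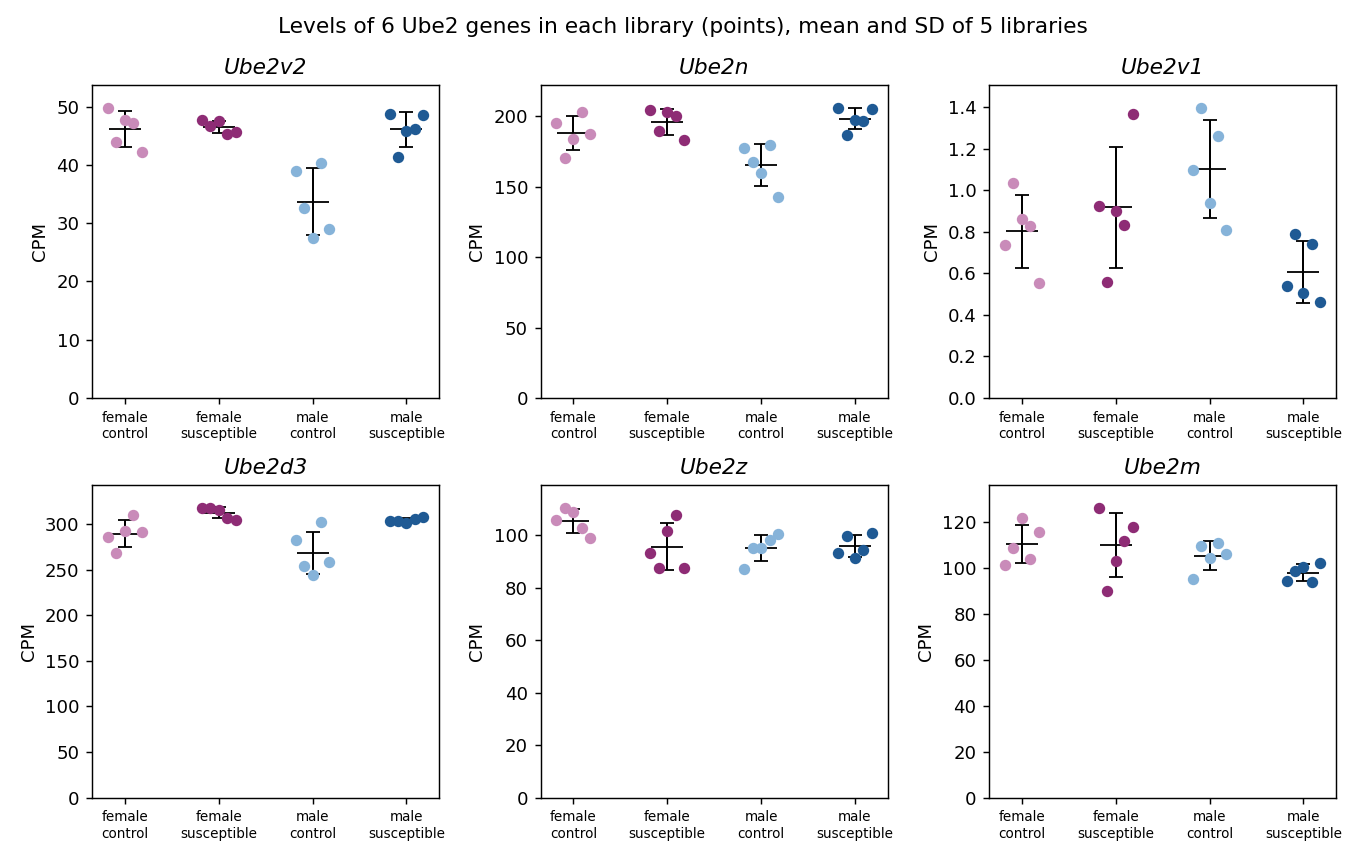
CPM (vertical axes, from 0) of 6 Ube2 genes in the 4 groups (horizontal axes). Points are libraries, the long dash is the mean and the bars are the SD of 5 libraries. For Ube2v2 the male controls (27.5 to 40.3 CPM) lie below every other library, while Ube2z and Ube2m overlap between the male groups.

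Of the 33 genes, 0 passed edgeR's threshold in males, where 0% of all 14884 genes did. At an unadjusted p under 0.05 there were 11, with 9 higher and 2 lower in susceptible males, against 9.67% of all genes. The other tools called more. DESeq2's Wald test called 1, Ube2n (adjusted p = 0.0292), against 0.161% of all genes. It gave no adjusted p to Ube2v2 (Wald test, unadjusted p = 1.57e-06), so that gene could not be called. The same held for Ube2a, Ube2c, Ube2cbp, Ube2e1, Ube2e2, Ube2f, Ube2g1, Ube2g2, Ube2j2, Ube2l6, Ube2s, Ube2t and Ube2v1. Genes without an adjusted p count as not called in both shares. With limma voom and sample quality weights 7 passed, against 4.51% of all genes: Ube2v2, Ube2n, Ube2k, Ube2d3, Ube2l3 and Ube2d2a were higher and Ube2v1 was lower. The groups did not overlap in 6 genes (Ube2v2, Ube2n, Ube2q2, Ube2r2 and Ube2l3 higher, Ube2v1 lower), against 2.43% of all genes. Since the male comparison was known when the family was chosen, nothing is read from these shares.

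The E2s that work with many E3 ligases in general ubiquitin transfer all had a positive log2 fold change in males, from 0.08 to 0.18 in 7 genes with a median of 0.15. All 7 are poor in GC, from 38.2% in Ube2d3 to 47.2% in Ube2e2, below the median of 49.5% over all genes. Of the 19 members of any role below that median, 18 were positive in males, so the sign is not particular to this role. Ube2d3, the member with the highest counts, had 282, 254, 244, 302 and 259 CPM in the male controls and 303, 303, 300.5, 305 and 308 in the susceptible males. Its control libraries spread over a wide range, of which 1 library reached into the narrow range of the susceptible ones. The log2 fold change of Ube2d3 was 0.18 ± 0.06 in males (edgeR adjusted p = 0.405) and 0.11 ± 0.06 in females (edgeR adjusted p = 0.774). Its paralogs Ube2d2a, at 0.16 ± 0.06, and Ube2d1, at 0.15 ± 0.06, had like values in males, and in females Ube2d2a had 0.09 ± 0.06 and Ube2d1 0.17 ± 0.06. Ube2w, which can modify the first amino group of a protein, had 0.17 ± 0.10 in males and Ube2e1 0.09 ± 0.07.

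Both Rad6 homologs, which ubiquitinate histones and the DNA clamp PCNA, had positive log2 fold changes in both sexes. X-linked Ube2a, for which mutations cause intellectual disability in humans, had means of 27.9 ± 3.50 CPM in male controls, 33.3 ± 2.21 in susceptible males, 32.0 ± 4.24 in female controls and 36.7 ± 4.67 in susceptible females (SD, n = 5 each). Its log2 fold change was 0.25 ± 0.10 in males (edgeR adjusted p = 0.464) and 0.20 ± 0.10 in females (edgeR adjusted p = 0.774). Ube2b, its close relative, had 158.6 ± 17.0 CPM in male controls, 174.8 ± 13.6 in susceptible males, 164.6 ± 21.3 in female controls and 194.7 ± 19.97 in susceptible females. The log2 fold change of Ube2b was 0.14 ± 0.09 in males and 0.24 ± 0.09 in females, the highest of the well-covered members there, and the groups overlapped in both sexes.

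Among the 6 enzymes of Lys48-linked chains and of the degradation of proteins from the endoplasmic reticulum, the male log2 fold changes ran from -0.05 to 0.18. Ube2k, which builds Lys48 chains, had 0.13 ± 0.07, membrane-anchored Ube2j1 0.15 ± 0.09 and Ube2r2, which works with cullin-RING ligases, 0.18 ± 0.08. Ube2g2, which serves the same degradation route, had -0.05 ± 0.13 and Ube2j2 -0.05 ± 0.07. Ube2l3, the partner of HECT and RING-between-RING ligases such as parkin, had 119.5 to 130.5 CPM (median 127) in male controls and 138 to 146 (median 141) in susceptible males, and a log2 fold change of 0.16 ± 0.06. For Ube2l3, 28.6% of the exonic bases lie opposite exons of Ydjc on the other strand, as do 16.1% of Ube2e1 (Nkiras1) and 22.8% of Ube2c (Tnnc2). The strand setting of the counting is not given in the sources used here. Whether reads of such pairs were separated is therefore not known.

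Of the 4 enzymes of ubiquitin-like proteins, 1 had a positive male log2 fold change and none passed edgeR's test. The NEDD8 enzymes Ube2m and Ube2f had male log2 fold changes of -0.10 ± 0.08 and 0.00 ± 0.05, and Ube2l6, the E2 of the interferon-induced ISG15, had -0.39 ± 0.18. Ube2m had 95.2, 109.7, 104, 111 and 106 CPM in the male controls and 94.5, 99.0, 101, 94.04 and 102.5 in the susceptible males, so that the groups overlapped. In females Ube2m had -0.005 ± 0.08 and Ube2l6 0.03 ± 0.18.

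Among the large or atypical members the male log2 fold changes ran from -0.03 to 0.17, the highest being Ube2q2, with 69.1 to 77.0 CPM (median 72.3) in male controls and 77.7 to 89.5 (median 81.1) in susceptible males, which did not overlap. Ube2q2 had 0.17 ± 0.06 in males (edgeR adjusted p = 0.445) and 0.01 ± 0.06 in females. Ube2z, which accepts ubiquitin from the alternative E1 Uba6, had the lowest female log2 fold change of the family. It had 106, 110.5, 109, 103 and 99.1 CPM in female controls and 93.5, 87.5, 102, 108 and 87.6 in susceptible females. Male controls had 87.0, 95.3, 95.2, 98.1 and 100.4 CPM and susceptible males 93.4, 99.7, 91.2, 94.6 and 101. The female groups overlapped through 2 susceptible libraries, and its log2 fold change was -0.14 ± 0.06 in females (edgeR adjusted p = 0.774) and 0.01 ± 0.06 in males. Ube2o, which acts as E2 and E3 in 1 protein, had -0.12 ± 0.06 in females and -0.03 ± 0.06 in males, and Ube2ql1 had -0.11 ± 0.11 and 0.01 ± 0.11. Ube2c had 0.45, 0.40, 0.20, 0.38 and 1.29 CPM in female controls and 0.73, 0.68, 0.66, 0.50 and 1.30 in susceptible females. It had 0.30, 1.03, 0.81, 0.86 and 0.19 CPM in male controls and 0.88, 1.12, 0, 0.31 and 0.46 in susceptible males. Every group of Ube2c overlapped the others, and its female log2 fold change of 0.48 ± 0.60 was the highest of the family but smaller than its error. Ube2t, an E2 of DNA crosslink repair, had -0.19 ± 0.37 in males and 0.21 ± 0.36 in females, and Ube2cbp -0.18 ± 0.21 and 0.10 ± 0.21.

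In females 0 of the 33 genes passed edgeR's threshold, where 0% of all genes did, and 0 passed with DESeq2 or with limma voom and quality weights, as for all genes in both. At an unadjusted p under 0.05 there were 3 (Ube2b and Ube2d1 higher, Ube2z lower), against 5.85% of all genes, and in 0 genes did the groups not overlap, against 0.464% of all genes. The test of the difference between the sexes called 0 genes in edgeR, against 0% of all genes, with 3 (Ube2v2, Ube2n and Ube2v1) at an unadjusted p under 0.05, against 8.26%. DESeq2 and limma voom also called 0 members for this difference.

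By sign, 23 of the 33 genes had a positive log2 fold change in males, with a median of 0.08, where 47.5% of all genes did, with a median of -0.01. In females 25 of the 33 were positive, with a median of 0.05, where 51.6% of all genes were, with a median of 0.01. The male control mean was the lowest of the 4 group means in 22 of the 33 genes, all 22 of them among the 28 well-covered ones, against 31.0% of all genes. The susceptible female mean was the highest in 18 of the 33, against 24.4% of all genes.

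**Figure D2:**
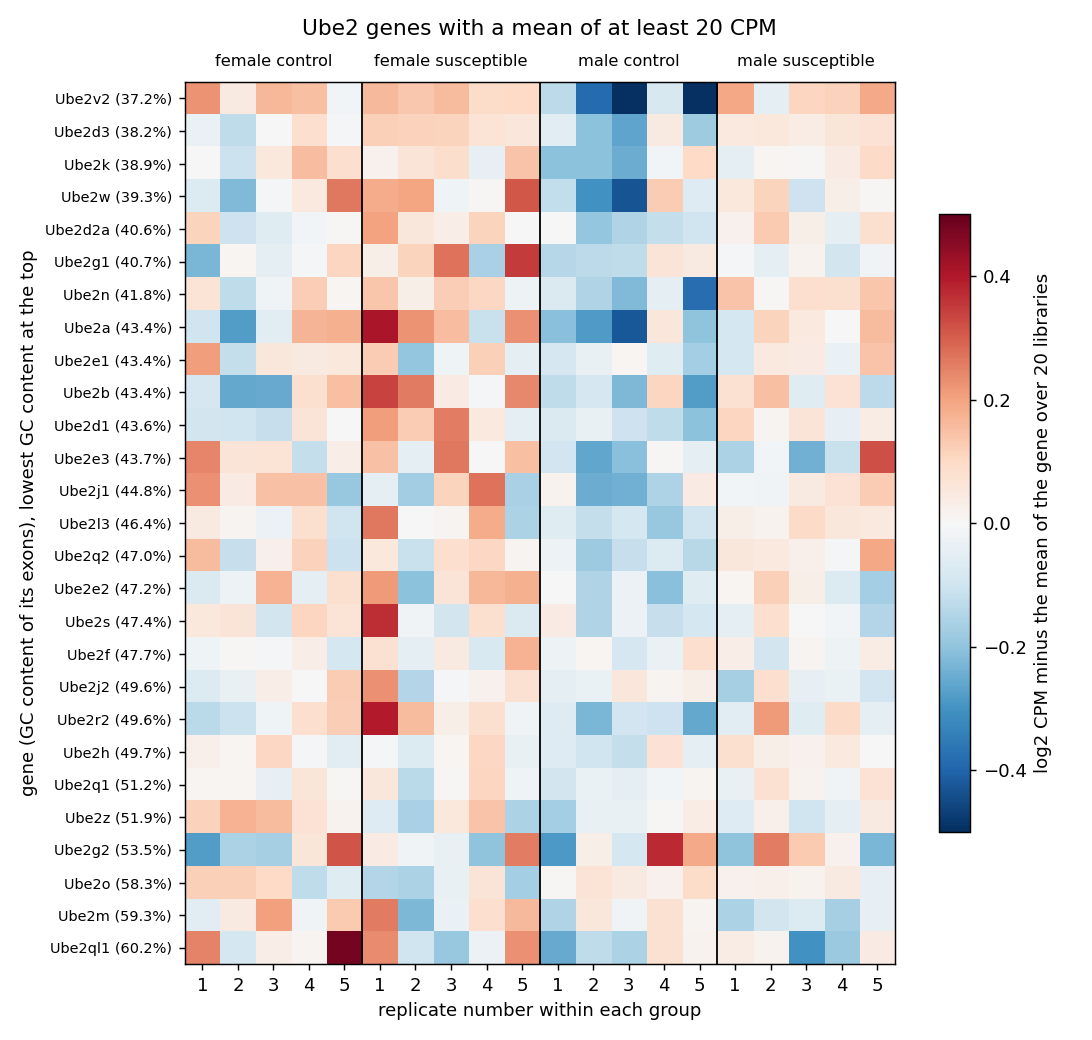
Log2 CPM minus the mean of each gene over 20 libraries (colour, from -0.5 in blue to 0.5 in red, with values beyond shown at the ends) for 27 of the 28 members at 20 CPM or more, sorted by GC content, in the 20 libraries. The male controls are mostly blue in the upper, GC-poor part, with male control replicates 2 and 3 the most evenly so. They are pale or light red at Ube2o, but replicates 1 to 3 are blue at Ube2ql1, the row richest in GC (-0.25, -0.13 and -0.16).

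GC content tracked the male difference within the family. Of the 19 tested members below the median GC content of all genes, 18 had a positive male log2 fold change, with a median of 0.15, against 61.3% of all genes on that side. Of the 14 members above it, 5 were positive, with a median of -0.05, against 33.8% of all genes. Across the 33 members, Pearson's r between GC content and the male log2 fold change was -0.55 and Spearman's rho -0.69. Over the 28 well-covered members both were -0.73. Across 14872 genes with a GC value they were -0.27 and -0.35. That set was not cut to well-covered genes, so it stands beside the 33 members and not beside the 28. These points share libraries, and members are not independent replicates, so the coefficients are descriptive. With the GC content of the coding sequence alone, r was -0.40 and rho -0.58 over the 33 members.

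In females the same relation was shallower, with r = -0.24 and rho = -0.32 across the 33 members, against -0.11 and -0.16 across all genes. Across the 28 well-covered members r was -0.54, for which no like value over all genes was taken. In females 17 of the 19 GC-poor members were positive, against 58.2% of all GC-poor genes, and 8 of the 14 others, against 44.9%. Exon length showed a weaker relation to the male value, with r = 0.29 and rho = 0.30.

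**Figure D3:**
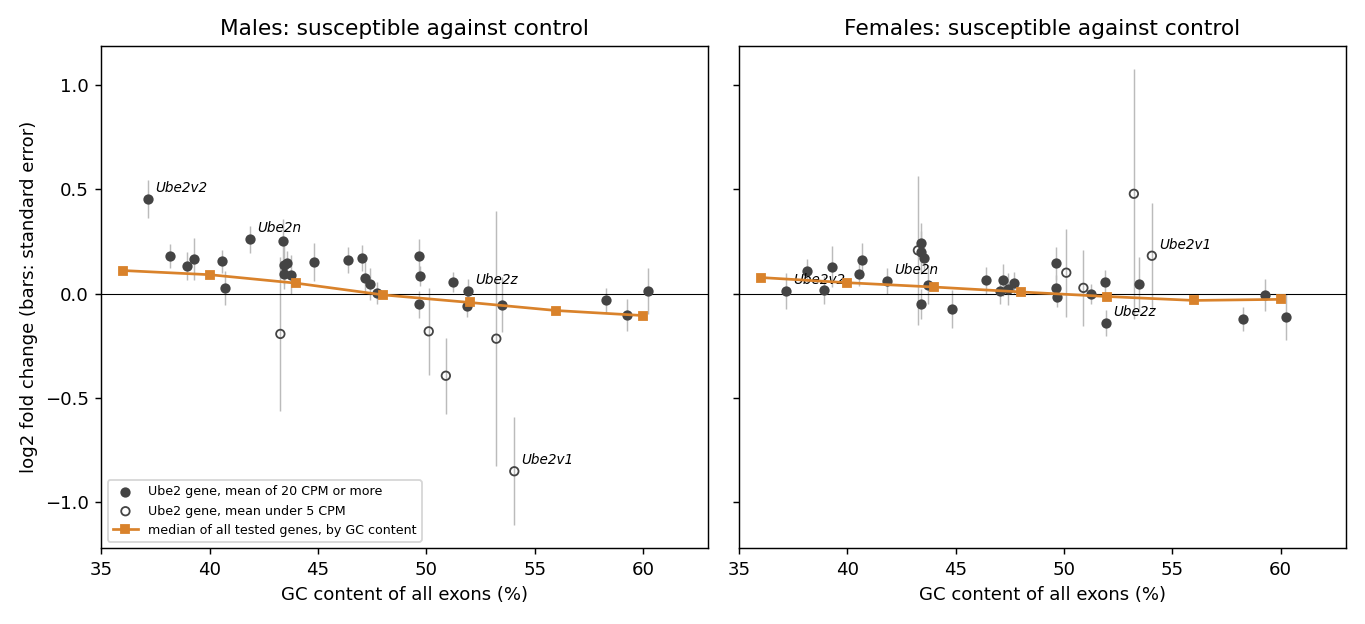
Log2 fold change of susceptible against control (vertical axes, bars are standard errors) against the GC content of all exons in percent (horizontal axes), for the 33 tested members in males (left) and females (right). Filled points have a mean of 20 CPM or more, open points under 5 CPM, and the orange line is the median of all tested genes in bins of 4 points of GC content, which falls from 0.11 to -0.10 in males and from 0.08 to -0.03 in females. Ube2v2 and Ube2n lie above the line in males, and Ube2v1 far below it.

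The trend could be read in each library. For each library the slope of the gene-centred log2 CPM on GC content was taken, in log2 units per 10 percentage points. Over all genes the slopes of the male controls were 0.01, 0.10, 0.13, 0.02 and 0.01, and those of the susceptible males -0.06, 0.01, -0.04, -0.10 and -0.07. Control replicates 2 and 3 were the steepest, and the groups overlapped through susceptible replicate 2. The means were 0.053 ± 0.057 and -0.052 ± 0.042 (SD, n = 5 each), a difference of -0.105. Without the libraries over 100 CPM of Ttr the difference was -0.133, and without any 1 male library it was -0.122 to -0.0864. Since this trend was known when the family was chosen, the difference is a description with no test. In females the difference over all genes was -0.044 between means of 0.022 ± 0.055 in controls and -0.023 ± 0.052 in susceptible females.

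Over the 33 members the slopes of the male controls were 0.03, 0.22, 0.19, 0.11 and 0.09, and those of the susceptible males -0.05, 0.05, -0.23, -0.06 and -0.13. All 5 controls were positive and 4 of 5 susceptible libraries negative. The means were 0.127 ± 0.078 and -0.084 ± 0.102, a difference of -0.211. These slopes give members under 5 CPM the same weight as the others. In susceptible replicate 3, the steepest of its group, Ube2c had 0 CPM and a gene-centred log2 CPM of -2.38. The difference was -0.175 without that library, and -0.196 with a filter of at least 1 CPM in 5 libraries. The female difference over the members was -0.042, with means of -0.001 ± 0.083 in controls and -0.042 ± 0.070 in susceptible females.

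**Figure D4:**
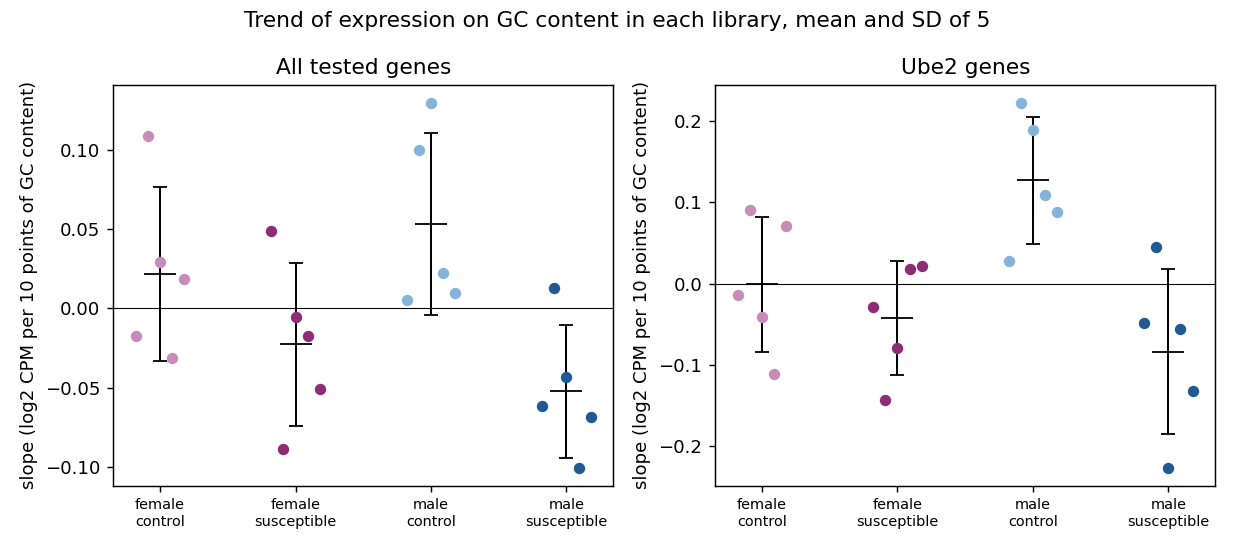
Slope of gene-centred log2 CPM on GC content in log2 units per 10 percentage points (vertical axes, which differ in scale) in each library, over all tested genes (left) and over the 33 Ube2 genes (right). Points are libraries, the long dash is the mean and the bars are the SD of 5 libraries per group. Male controls have the highest mean in both panels (0.053 and 0.127) and susceptible males the lowest (-0.052 and -0.084).

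In each library a curve on GC content and exon length was fitted over all tested genes, members included, and entered the edgeR fit as offsets. A weaker relation to GC content is therefore built in, and across all genes r in males went from -0.27 to -0.009. The values that follow describe this step and test no cause. Across the 33 members Pearson's r in males went from -0.55 to -0.30 and rho from -0.69 to -0.27. Across the 28 well-covered members r went from -0.73 to -0.22. The member slope difference in males went from -0.211 to -0.102. The median over the members was 0.06 in place of 0.08, and 24 of 33 were positive, where 51.0% of all genes were. Ube2v2 had a male log2 fold change of 0.35 ± 0.09 with offsets (edgeR adjusted p = 0.818), Ube2n 0.17 ± 0.06 and Ube2d3 0.11 ± 0.09. Ube2k went from 0.13 to 0.04, while Ube2l3 kept 0.16 and Ube2v1 -0.79. At the GC-rich side Ube2o went from -0.03 to 0.09, Ube2ql1 from 0.01 to 0.12 and Ube2m from -0.10 to -0.01. With limma voom after removal of the trend 0 of the 33 genes passed in males, against 0% of all genes. Before it 7 members and 4.51% of all genes had passed. In limma voom the log2 fold change of Ube2l3 was 0.16 before and after, that of Ube2v1 went from -0.88 to -0.79, Ube2v2 from 0.51 to 0.34, Ube2n from 0.25 to 0.14, Ube2d3 from 0.22 to 0.08, Ube2k from 0.19 to 0.05 and Ube2d2a from 0.16 to 0.05. In females r went from -0.24 to -0.04.

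**Figure D5:**
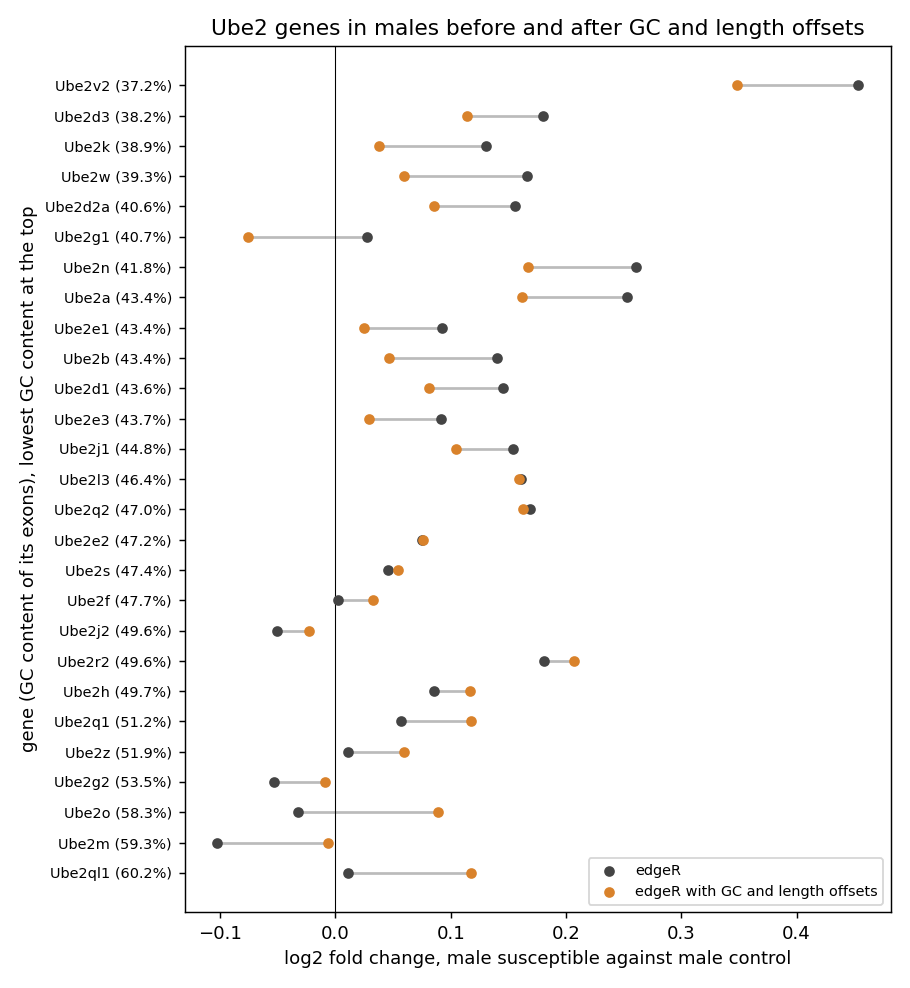
Log2 fold change of susceptible against control males (horizontal axis) for 27 of the 28 members at 20 CPM or more, sorted by GC content, in edgeR (dark) and in edgeR with GC and length offsets (orange). Members from Ube2v2 to Ube2q2 (47.0% GC) move to the left and those from Ube2e2 (47.2% GC) upward in GC content to the right, and Ube2v2 stays the highest at 0.35.

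Between male and female controls edgeR called 1 member, Ube2v2, against 0.511% of all genes. Its log2 fold change, male minus female, was -0.46 ± 0.09 (edgeR adjusted p = 0.0334), and it was lower in all 5 male controls than in any female control, which held for 1 member against 3.89% of all genes. The same male control libraries enter this value and the male stress value, so neither supports the other. At an unadjusted p under 0.05 there were 7 members, against 19.2% of all genes. Of these, 6 were lower in males, namely Ube2v2, Ube2n, Ube2z, Ube2k, Ube2ql1 and Ube2j1. DESeq2 called Ube2v2 alone, against 3.06% of all genes. With limma voom and quality weights 8 members passed, against 22.1%, and 6 after removal of the trend, against 20.2%, with Ube2v2 among them both times, so these counts stood near the background.

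The call of Ube2v2 in controls held with GC and length offsets, at -0.48 ± 0.09 (edgeR adjusted p = 0.032). It was lost without the libraries over 100 CPM of Ttr (-0.42, edgeR adjusted p = 0.341), which left 3 female and 4 male controls. Without those over 1 CPM of Pmch, which left 2 female and 5 male controls, it was lost too (-0.42, edgeR adjusted p = 0.813). Smaller groups alone can lose a call, and the part of neighbouring tissue was not tested. The call was lost with the 2 groups fitted alone (-0.46, edgeR adjusted p = 0.104) and with 1 surrogate variable (-0.42, edgeR adjusted p = 0.13). It was also lost without any 1 of female control replicates 1 to 4 or of male control replicates 2, 3 and 5, with values of -0.47 to -0.39. Oligodendrocyte markers had negative values in 6 of 6 between male and female controls, with a median log2 fold change of -0.64. Of these, edgeR called 0, 6 had an unadjusted p under 0.05 in edgeR and limma voom called 6. All 6 had positive values in the male stress comparison, with a median of 0.31. In the female stress comparison 0 of 6 were positive, with a median of -0.32. Endothelial markers had positive values between male and female controls in 5 of 5, with 3 called by edgeR and a median of 0.87. Their sum was 101 to 114 CPM in female and 116 to 208 in male controls. In the male stress comparison 1 of 5 was positive, with a median of -0.27, 0 called by edgeR and 2 called lower by limma voom. Striatal neuron markers had positive values between the controls in 5 of 5 (median 0.997, 0 called by edgeR, 3 at an unadjusted p under 0.05, 5 by limma voom), with sums of 95.6 to 1048 CPM in female and 969 to 1677 in male controls, and a median of -0.33 in the male stress comparison. Thalamic neuron markers had negative values between the controls in 5 of 5 (median -1.29, 0 called by edgeR, 1 at an unadjusted p under 0.05, 2 by limma voom), with sums of 180.3 to 1166 CPM in female and 192 to 527 in male controls, and positive values in 5 of 5 in the male stress comparison (median 0.67). Cortical and hippocampal excitatory markers were positive in 1 of 4 between the controls (median -0.08) and 0 of 4 in male stress (median -1.41). Astrocyte markers were positive in 0 of 5 (median -0.21, 1 called by limma voom) and 3 of 5 (median 0.01). For GABA neurons these were 5 of 6 (median 0.34, 4 called by limma voom) and 5 of 6 (median 0.04). For microglia they were 2 of 5 (median -0.08) and 4 of 5 (median 0.01). Choroid plexus markers were positive in 0 of 5 (median -1.03, 1 called by limma voom) and 3 of 5 (median 0.22). Lateral hypothalamic markers were positive in 0 of 2 (median -6.33) and 2 of 2 (median 3.39). Female stress medians were 0.88 for striatal, -0.47 for thalamic, 0.14 for cortical and hippocampal and 0.12 for endothelial markers. They were -0.22 for astrocytes, 0.29 for GABA neurons, -0.02 for microglia, -0.44 for choroid plexus and -4.22 for lateral hypothalamus. The part of these cell types in the values of Ube2v2 was not tested. Among susceptible mice edgeR called 0 members between the sexes, against 0.047% of all genes, and 2 (Ube2v1 and Ube2m, both lower in males) had an unadjusted p under 0.05, against 6.28%. Neither DESeq2 nor limma voom called a member there. Ube2v2 differed by -0.01 ± 0.09 between susceptible males and females.

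Across the 33 members, GC content and the sex difference in controls gave r = 0.47 and rho = 0.49, where all genes gave 0.04 and 0.09. The male controls enter this difference and the male stress difference with opposite sign, so these coefficients are not separate from those for male stress. With GC and length offsets the members gave 0.36 and 0.33. In the controls 1 of the 19 GC-poor members had a higher mean in males on the log2 scale, against 46.0% of all GC-poor genes. Of the 14 others 7 did, against 52.9% of all genes on that side.

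The rest of the ubiquitin pathway was examined in lists, in which edgeR called 0 of 126 tested genes in each stress comparison, in their difference and between the sexes in controls and in susceptible mice. At an unadjusted p under 0.05 there were 14 higher and 2 lower in males with stress, 6 higher and 0 lower in females with stress, and 12 higher and 14 lower in male than in female controls. These made up 12.7%, 4.76% and 20.6% of the 126, near the 9.67%, 5.85% and 19.2% of all genes. Of 9 E1 enzymes, 7 had a positive male log2 fold change, with a median of 0.09. The largest were Uba6, the alternative E1 that loads Ube2z, at 0.37 ± 0.09, and Uba3, the NEDD8 E1 subunit that loads Ube2m and Ube2f, at 0.31 ± 0.08 (edgeR adjusted p = 0.405 for both). Both are poor in GC, at 37.1% and 39.3%, and had 0.04 and 0.05 in females. Of 8 tested E2 and E2-like genes without the prefix, 6 were positive in males with a median of 0.08, led by Atg10, an E2-like enzyme of autophagy, at 0.27 ± 0.12, and Aktip at 0.17 ± 0.05. Of 12 ubiquitin and ubiquitin-like genes 7 were positive, with a median of 0.01, and Rps27a, a ubiquitin-ribosomal fusion gene, had 0.45 ± 0.28.

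Downstream of the E2s, 26 of 47 E3 ligase genes had a positive male log2 fold change, with a median of 0.03. The largest were Hltf, which works with Ube2n on PCNA, at 0.30 ± 0.12 and Ube3a, the Angelman syndrome ligase that uses Ube2l3, at 0.26 ± 0.10. Deubiquitinases were positive in 13 of 19 (median 0.03), with Uchl3 at 0.17 ± 0.08 and Usp9x at 0.15 ± 0.18. Proteasome subunits were positive in 21 of 31 (median 0.03), with Psma2 at 0.18 ± 0.07 and Psmc6 at 0.16 ± 0.06. In females the medians were 0.00 for E1 enzymes, 0.05 for the other E2 genes, 0.03 for ubiquitin-like genes, 0.04 for E3 ligases, 0.04 for deubiquitinases and 0.07 for proteasome subunits, of which 25 of 31 were positive. With limma voom and quality weights, 9 genes of these lists were called higher in males, namely 2 E1, 1 ubiquitin-like, 1 other E2, 4 E3 and 1 proteasome genes, and none lower, against 4.51% of all genes in either direction.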

How the data were processed

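The deposited files hold whole-number read counts per gene, which the authors made with HISAT2 and featureCounts on mm10, per the submitters' processing notes. Versions, annotation and strand setting were not given in the sources used here. Of 19214 genes, 19206 matched GENCODE release 21 (GRCm38), the source of symbols, GC content, exon length and coding sequences. The 8 others held 0.0026% of counts.

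The members, gene lists, tests and naming rule were chosen with earlier results of these data known. Groups and replicate numbers came from the titles. Counts of all 20 libraries (14637636 to 17862840 per library) were scaled by TMM, filtered by filterByExpr (14884 genes left) and fitted with 1 mean per group by edgeR 4.0.16 (robust quasi-likelihood, R 4.3.3), with Benjamini-Hochberg adjustment over all tested genes and a threshold of 0.05. Each standard error is the size of the log2 fold change divided by the root of its F statistic. Alternatives were DESeq2 1.42.0, limma 3.58.1 (voom with quality weights), sva 3.50.0 (1 surrogate variable), GC and length offsets from smooth trends per library (mgcv 1.9.3), other filters and size factors, a replicate block, and omission of libraries. CPM used library sizes scaled by TMM, and log2 CPM a prior count of 2. An exact permutation test of the GC slopes was run, but since the trend was known when the family was chosen, its p is not given.

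Named were the 5 highest and lowest members per sex by log2 fold change and by GC content, the 3 largest in the difference between sexes and in each sex comparison, called members, and chosen members by role, with values in every library for Ube2v2, Ube2n, and the highest and lowest per sex. The pathway lists gave the 2 largest male values among genes of at least 5 CPM. Values in every library of Ube2d3 and Ube2m, and the ranges of Ube2q2, were added after their values were seen. The code was tested on simulated data. No 2 libraries of a group agreed within sampling noise (lowest chi-square per degree of freedom 5.77). Values of 1 member and 1 gene of the pathway lists, and the sequence of 1 member, are not reported here; the genes stay in the counts and medians.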

Additional observations from a re-analysis of the deposited data

Results flagged for a closer look

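In 28 groups of 5 libraries, over the members with values in every library and the slopes on GC content, a library was looked for whose gap to the nearest other library was over 0.71 of the range of its group. There were 2, both in Ube2c, and chance finds about 1 in 20 groups. Female control replicate 5 had 1.29 CPM of Ube2c, where the next library had 0.453. Susceptible female replicate 5 had 1.30 CPM, where the next had 0.726. These values rest on 21 and 18 reads.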

How the results depend on the processing

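Of the members, 0 passed in males in edgeR and under all alternatives but DESeq2, with 1, and limma voom with quality weights, with 7. DESeq2 gave no adjusted p in males to Ube2v2 and the other members named above, so it could not call them. In controls 1 member passed between the sexes, against 8 with limma voom and 6 with limma voom after removal of the GC and length trend. The count was 0 with 1 surrogate variable and with the groups alone. It was also 0 without the libraries rich in Ttr or in Pmch, which left fewer controls, and leaving out 1 library gave 0 to 1. No member passed under any alternative in females, between susceptible sexes or for the difference between sexes. The GC slope difference over all genes in males was -0.133 without the libraries rich in Ttr, -0.101 without those rich in Pmch, and -0.122 to -0.0864 without 1 library; the cause was not tested. The median of the members stayed positive, at 0.04 to 0.09 in males and 0.01 to 0.07 in females, and their GC slope difference negative, at -0.248 to -0.162 and -0.0692 to -0.0164. Of 1102 values of named members under alternatives, 15, from 11 members, moved by over 1 SD. The pairing by replicate number was checked: same-numbered male libraries correlated at 0.0187 to 0.251 and female ones at -0.436 to 0.642, so the numbers were not taken to pair samples, and with the replicate block 0 members passed in males and 1 in controls, with a male median of 0.08.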
